A study of Homo sapiens with 12 samples.

Results

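The mitotic kinesins described here are KIF11, KIF14, KIF15, KIF18A, KIF18B, KIF20A, KIF20B, KIF23, KIF2C and KIF4A, microtubule motors that work in the spindle and during cytokinesis. They were selected from the table by gene symbol, and all 10 were found among the 15798 genes of the count table. The rule held no measured value, but the list was chosen with earlier results of these data known. Counts of members set beside those of all genes are therefore a description. The cells were HCT116, a human colorectal cancer line, so that a single tumour background was studied. They received either 100 nM trametinib, a MEK1/2 inhibitor, or the solvent DMSO, in each case for 24 h. Cytoplasmic RNA was sequenced as randomly fragmented input, a measure of mRNA abundance, and as ribosome footprints from RNase I treated monosomes, a measure of ribosome occupancy. Every group (DMSO input, trametinib input, DMSO footprints, trametinib footprints) held 3 biological replicates. In all groups cycloheximide was added shortly before lysis to hold ribosomes on the mRNA.

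Kinesins use ATP to move along microtubules or to take apart their ends. The mitotic members separate the spindle poles, align chromosomes, build the central spindle between the parted chromosomes and complete cytokinesis. Their mRNAs are made mainly late in the cell cycle, when the MuvB complex together with B-MYB (gene MYBL2) and FOXM1 activates genes whose promoters carry a cell cycle genes homology region (CHR), commonly beside CCAAT boxes bound by NF-Y. In resting cells MuvB with RBL1 or RBL2 and E2F4 represses the same genes. ERK, which MEK1/2 activates, promotes entry into the cell cycle in colorectal epithelium and its tumours. The data were used to ask how far these mRNAs fell under MEK1/2 inhibition, and whether ribosome occupancy fell with the mRNA or further.

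Promoter sequence is given first for 5 members, the 4 with the largest fall in input (KIF18B, KIF2C, KIF20A and KIF23) and the member with the smallest (KIF18A). Each is read 5′ to 3′ along the gene's strand from 100 bases before to 30 bases after the start annotated by RefSeq (GRCh38.p14). Capitals mark letters that match CCAAT or a CHR on either strand (ATTGG is CCAAT, and TTCAAA is TTTGAA, on the other strand).
KIF18B, chr17:44947744-44947873, minus strand: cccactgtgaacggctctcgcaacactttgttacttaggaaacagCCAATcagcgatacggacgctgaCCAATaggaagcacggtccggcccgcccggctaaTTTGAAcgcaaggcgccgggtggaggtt
KIF2C, chr1:44739737-44739866, plus strand: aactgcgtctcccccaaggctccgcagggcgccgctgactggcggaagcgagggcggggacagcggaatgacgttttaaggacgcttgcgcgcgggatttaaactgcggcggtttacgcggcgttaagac
KIF20A, chr5:138179012-138179141, plus strand: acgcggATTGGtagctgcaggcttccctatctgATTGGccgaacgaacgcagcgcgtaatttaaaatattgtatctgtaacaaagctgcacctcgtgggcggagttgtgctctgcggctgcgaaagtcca
KIF23, chr15:69414249-69414378, plus strand: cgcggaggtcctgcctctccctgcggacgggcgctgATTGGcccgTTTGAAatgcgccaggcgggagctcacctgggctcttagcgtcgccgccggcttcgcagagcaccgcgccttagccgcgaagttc
KIF18A, chr11:28108127-28108256, minus strand: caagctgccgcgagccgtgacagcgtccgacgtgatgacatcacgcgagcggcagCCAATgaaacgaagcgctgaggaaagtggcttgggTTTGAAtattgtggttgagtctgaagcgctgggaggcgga

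Matches were counted over the whole window of the table, from 250 bases before to 50 after the start, on both strands, with TTTGAA or TTCGAA taken as a CHR and CCAAT as a CCAAT box. No matches in the members shared a base. A CHR lay in 8 of the 10 windows, against 16.6% of all 27305 promoters and 11.8% of the 12397 that belong to genes of the count table. A CCAAT box likewise lay in 8 of the 10, against 35.7% and 36.5%. Both motifs were present in 7 of 10, against 6.58% and 4.92%. By these letters KIF15 had a CHR alone, KIF20A had CCAAT boxes alone, and KIF2C had neither in this window. Other forms of a CHR were not searched for, so a window without a match may still hold one. The mRNA of KIF2C fell almost as far as that of KIF18B. KIF18A, whose mRNA fell least, had both motifs. Among the other kinesins used in division 3 of 6 windows held a CHR, 3 of 6 a CCAAT box and 3 of 6 both. Among the transport and other kinesins 2 of 19 windows held a CHR and 6 of 19 a CCAAT box. For the partners and regulators of the mitotic kinesins, 13 of 18 held a CHR and 16 of 18 a CCAAT box. A match describes letters in a window and no factor was measured on it here.

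**Figure D1:**
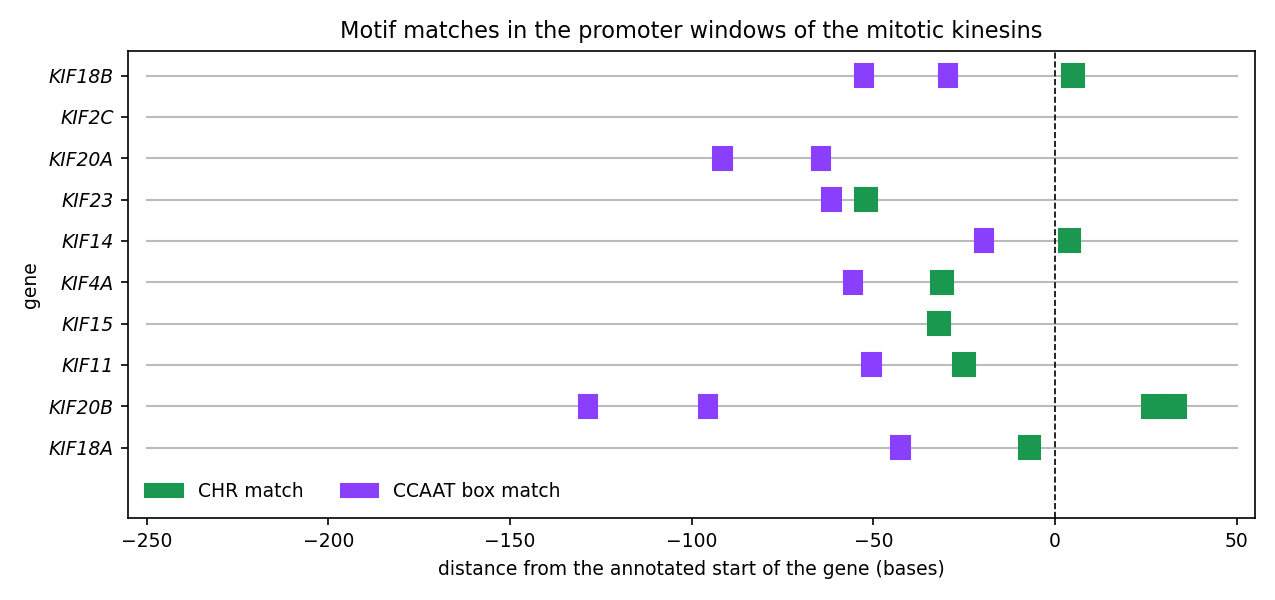
Position of CHR matches (green) and CCAAT box matches (purple) in the promoter window of each mitotic kinesin; the horizontal axis is the distance in bases from the annotated start (dashed line) and the rows are ordered by fall in input, largest at the top. CHR matches begin between 55 bases before and 31 bases after the start in 8 genes, and the row of KIF2C is empty.

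Counts inside open reading frames summed to 2276693 to 2845568 per input library and to 10127477 to 19181588 per footprint library, so that input was the thinner measurement. DMSO replicate 1 stood apart from the other DMSO replicates, most clearly in footprints, where chi-square per degree of freedom over genes was 57.3 and 113 against replicates 2 and 3 and 23.3 between those replicates. Of 13 ERK output genes 12 fell in input, led by DUSP6 (log2 change -7.69), SPRY4 (-7.06) and ETV5 (-6.43), and EPHA4 rose (1.22). The same counts held in footprints (DUSP6 -8.28, SPRY4 -7.16, ETV5 -6.75 and EPHA4 1.5). The epithelial markers summed to 30055 to 45296 normalized counts in DMSO input and 49967 to 62215 in trametinib input, with 4 of 6 called higher. Markers of other cell types summed to 71.3 to 101 and to 106 to 167, with 4 of the 9 in the table at 0 in every input library of each treatment. The endothelial marker VWF was called higher in both assays (log2 change 2.54 in input, adjusted p = 0.00142, and 1.62 in footprints, adjusted p = 0.0105), with 13 reads in DMSO input and 66 in trametinib input in all. The collagen gene COL1A1, the highest of these markers in input, had 90 reads in DMSO input and 69 in trametinib input. In footprints it had 284 with DMSO and 379 with trametinib, and it was not called in either assay. The macrophage marker CD68 had 0 reads in DMSO input and 6 in trametinib input. The leukocyte marker PTPRC had 1 read in all input libraries together and the T cell marker CD3E had 0. The part of these markers in the results was not tested.

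All 10 mitotic kinesins fell in input and all 10 fell in footprints. Over all 10663 genes tested 32.1% were called in input and 49.4% in footprints in either direction. The fall in mRNA ranged from 2.14-fold for KIF18A to 22.8-fold for KIF18B, and the fall in footprints from 2.18-fold for KIF18A to 32.9-fold for KIF2C. Called lower were 16.8% of all tested genes in input (1787 genes, with 1641 higher) and 25.6% in footprints (2727, with 2545 higher), at an adjusted p-value under 0.05 in edgeR. When footprints were scaled by library totals in place of TMM (trimmed mean of M values, the scaling used throughout for input and footprints), 1944 genes were lower and 3577 higher, and all 10 members were still called lower. The median log2 change of the members was -3.23 in input and -4.06 in footprints, beside medians of -0.0015 and -0.013 over all tested genes. In both assays the 3 trametinib libraries lay below the 3 DMSO libraries for 10 of 10 members, as they did for 23.3% of all tested genes in input and 30.3% in footprints. All members but KIF18B had at least 10 reads in every library. KIF18B passed the filter on low counts through its DMSO input libraries alone. Without DMSO replicate 1 of the same assay all 10 were called lower, and their log2 changes spanned -4.64 to -1.09 (input) and -5.03 to -1.23 (footprints). Because whole cultures were sequenced, fewer cells in the phase in which these genes are transcribed and less mRNA in each cell cannot be told apart.

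**Figure D2:**
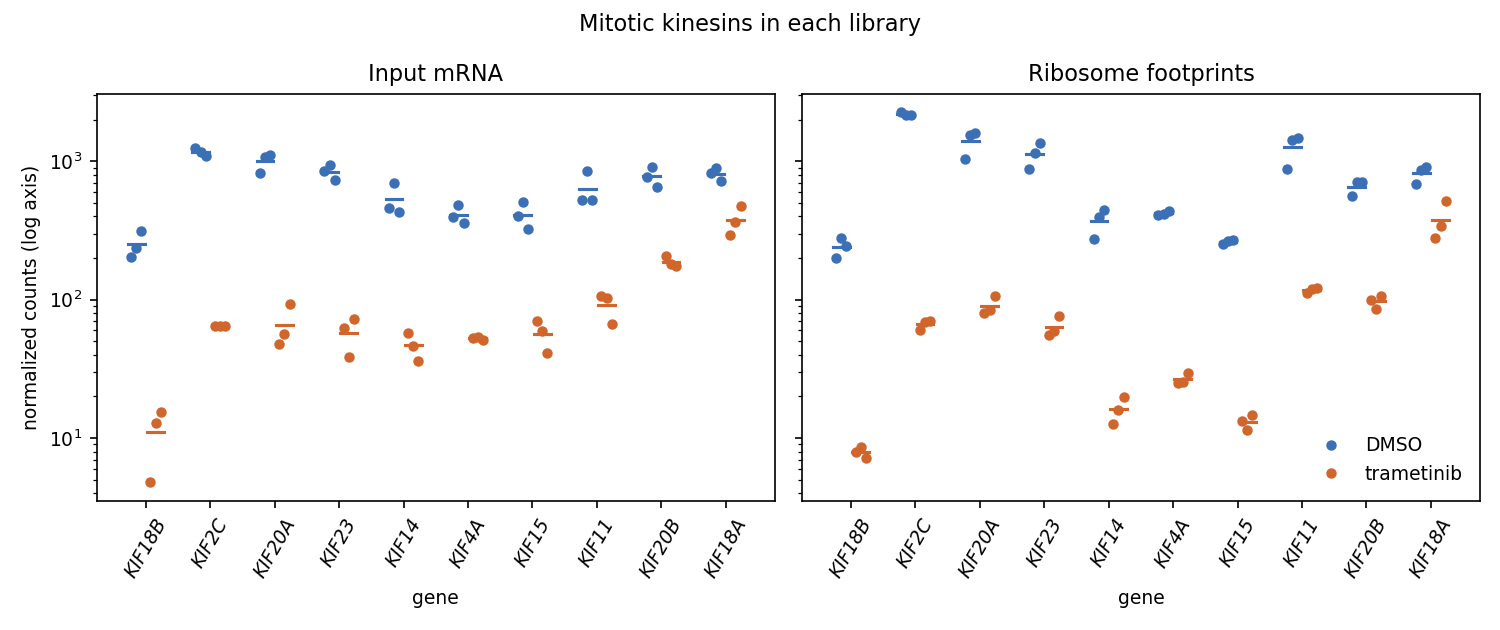
Normalized counts (log axis) of each mitotic kinesin in every library, input on the left and footprints on the right, with DMSO in blue, trametinib in orange, points for the 3 replicates and a bar for their mean; genes are ordered by fall in input. Trametinib points lie below DMSO points for all 10 genes in both assays, and the gap is narrowest for KIF18A.

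KIF11 (chr10:92574105-92655395, Gencode v44, GRCh38), the plus-end directed motor that pushes the spindle poles apart, had 526, 845 and 522 normalized counts in DMSO input and 106, 103 and 66.8 in trametinib input. Its footprints were 884, 1432 and 1476 with DMSO and 112, 120.0 and 122 with trametinib. The groups did not overlap in either assay, and the lowest DMSO footprint value came from replicate 1. The log2 change was -2.77 ± 0.25 (SE) in input (adjusted p = 3.56e-06) and -3.42 ± 0.20 in footprints (adjusted p = 3.34e-06). KIF15 (chr3:44761721-44873376), which can stand in for KIF11 in keeping the spindle bipolar, had 401, 512 and 323 normalized counts in DMSO input and 69.8, 59.2 and 41.1 in trametinib input. Its DMSO footprints were close to each other at 251, 264 and 268, and its trametinib footprints were 13.2, 11.5 and 14.8. The fall was larger in footprints (-4.31 ± 0.15, adjusted p = 3.06e-07) than in input (-2.85 ± 0.25, adjusted p = 2.75e-06), the widest such gap among the members. Both motors of spindle pole separation thus ended below the range of their DMSO libraries.

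KIF4A (chrX:70290104-70420886) is a chromokinesin that also sets the length of the central spindle together with PRC1. It had 393, 484 and 361 normalized counts in DMSO input and 52.9, 54.0 and 51.4 in trametinib input. DMSO footprints were 412, 415 and 437 and trametinib footprints 25.2, 25.5 and 29.5. The replicates varied little, and no values of the treatments overlapped. The log2 change was -2.96 ± 0.21 in input (adjusted p = 4.33e-07) and -3.98 ± 0.13 in footprints (adjusted p = 2.21e-07). Of its coding sequence, 29.3% of all windows of 30 bases (1074 of 3667) also occur in KIF4B, an intronless copy. Reads from such windows were not assigned to either gene, so KIF4A was measured on part of its sequence. No such window was found in the other 9 members.

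KIF2C, KIF18B and KIF18A act on microtubule ends. KIF2C (chr1:44739818-44767767), also known as MCAK, removes tubulin from microtubule ends and helps to correct wrong attachments at kinetochores. It had the highest DMSO values of all members, with 1245, 1175 and 1084 normalized counts in input and 2270, 2163 and 2149 in footprints. With trametinib these were 65.0, 64.3 and 64.3 in input and 60.8, 69.4 and 70.4 in footprints. The fall was -4.17 ± 0.18 in input (adjusted p = 3.31e-08) and -5.04 ± 0.13 in footprints (adjusted p = 1.07e-07). These standard errors were the smallest among the members, in input by little (0.1785 beside 0.1801 for KIF20B). Under DESeq2 the input error of KIF2C (0.243) was larger than those of KIF18A (0.218) and KIF20B (0.219). By log2 change in footprints KIF2C ranked 25 from the lowest of the 10663 tested genes.

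KIF18B (chr17:44924709-44947773), which shortens astral microtubules together with KIF2C, had 203, 236 and 314 normalized counts in DMSO input. In trametinib input it had 4.81, 12.9 and 15.4, which are 2, 5 and 6 reads. Its footprints were 202, 279 and 245 with DMSO and 7.99, 8.63 and 7.14 with trametinib, the lowest normalized counts of any member. Per kilobase of coding sequence, trametinib footprints of KIF18B (3.10 ± 0.29, SD), KIF15 (3.16 ± 0.39) and KIF14 (3.28 ± 0.75) lay within each other's spread. KIF18B had the largest fall in input among the members, -4.51 ± 0.35 (adjusted p = 1.06e-06), with the widest error, and a fall of -4.92 ± 0.19 in footprints (adjusted p = 4.08e-07). Its first place in input was not stable. With limma-trend KIF2C fell slightly further (-4.07 beside -4.06 for KIF18B), as it did without trametinib input replicate 1 (-4.17 beside -4.13).

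KIF18A (chr11:28020619-28108156), which dampens the oscillations of chromosomes at the metaphase plate, stood apart from the other members. It had 818, 899 and 721 normalized counts in DMSO input and 291, 363 and 478 in trametinib input. Footprints were 691, 871 and 912 with DMSO and 281, 341 and 513 with trametinib. The groups did not overlap, yet the highest trametinib values came near the lowest DMSO values in both assays. The log2 change was -1.10 ± 0.19 in input (95% confidence interval -1.52 to -0.68, adjusted p = 0.000883) and -1.12 ± 0.21 in footprints (adjusted p = 0.00257). The interval in input lay above that of KIF20B, the next smallest fall (-2.44 to -1.66), and so above those of all other members. As a result KIF18A took a larger part of what was left of the set. Of the members' summed normalized counts it made up 12.6%, 11.5% and 11.6% in DMSO input and 30.2%, 37.1% and 43.8% in trametinib input. In footprints the share was 9.26%, 9.45% and 9.51% with DMSO and 37.6%, 41.5% and 48.1% with trametinib. The singling out of KIF18A followed from its values, and these shares are a description without a test.

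The other members work at the central spindle and in cytokinesis. KIF23 (chr15:69414246-69448427), also known as MKLP1, forms the centralspindlin complex with RACGAP1. It had 856, 944 and 728 normalized counts in DMSO input and 62.6, 38.6 and 72.0 in trametinib input. Footprints were 876, 1141 and 1356 with DMSO and 55.6, 59.2 and 76.6 with trametinib. The values of the treatments were far apart in both assays, with log2 changes of -3.86 ± 0.23 in input (adjusted p = 1.07e-07) and -4.14 ± 0.20 in footprints (adjusted p = 1.14e-06). KIF20A (chr5:138178719-138187723), also known as MKLP2, carries the chromosomal passenger complex with AURKB to the central spindle. Its normalized counts were 819.7, 1078 and 1112 in DMSO input and 48.1, 56.6 and 92.6 in trametinib input. Its footprints were 1044, 1549 and 1590 with DMSO and 80.5, 84.2 and 106 with trametinib. DMSO replicate 1 was the lowest DMSO library in both assays and still far above trametinib. KIF20A fell by nearly the same amount in input (-3.93 ± 0.24, adjusted p = 1.7e-07) and in footprints (-3.95 ± 0.20, adjusted p = 1.36e-06).

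KIF14 (chr1:200551497-200620751), which binds PRC1 and citron kinase (CIT) at the midbody, had 459, 702 and 431 normalized counts in DMSO input and 57.8, 46.3 and 36.0 in trametinib input. Footprints were 273, 397 and 446 with DMSO and 12.6, 16.0 and 20.0 with trametinib. These values did not overlap, and the fall was -3.49 ± 0.26 in input (adjusted p = 6.97e-07) and -4.54 ± 0.24 in footprints (adjusted p = 1.96e-06). KIF20B (chr10:89701590-89774939), a motor needed to finish cytokinesis, had 770.1, 916 and 649 normalized counts in DMSO input and 207, 180.1 and 175 in trametinib input. Footprints were 559, 707 and 706 with DMSO and 99.8, 85.9 and 107 with trametinib. Its fall was the second smallest of the set in both assays, at -2.05 ± 0.18 in input (adjusted p = 3e-06) and -2.75 ± 0.14 in footprints (adjusted p = 1.41e-06).

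Taking the set as a whole, its members made up 0.106%, 0.134% and 0.107% of all counts in DMSO input and 0.0162%, 0.0167% and 0.0184% in trametinib input. In footprints the shares were 0.111%, 0.140% and 0.142% with DMSO and 0.0127%, 0.0139% and 0.0178% with trametinib. Within DMSO input, levels per kilobase of coding sequence differed between members. KIF2C was highest at 537 ± 37.0 normalized counts per kilobase (SD, n = 3), followed by KIF20A at 376 ± 59.9. KIF18A (302 ± 33) and KIF23 (288 ± 37.2) came next and did not differ beyond their spread, then KIF11 (199 ± 58.4) and KIF20B (142 ± 24.5). KIF14 (107 ± 30.2), KIF15 (99.0 ± 22.8) and KIF18B (98.1 ± 22.3) lay within each other's spread. For KIF4A the value of 112 ± 17.3 is too low, since it divides by the full coding length although reads from the sequence shared with KIF4B were not counted, and KIF4A was not placed in this order. In trametinib input the order per kilobase changed, with KIF18A first at 140.1 ± 35.0, KIF20B at 34.3 ± 3.16 and KIF2C at 29.7 ± 0.18, and with KIF18B last at 4.32 ± 2.17.

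Ribosome density, the ratio of footprints to input, was called lower with trametinib for 3 members, KIF15, KIF2C and KIF4A. The estimates for all 10 were below 0, beside a median of 0.0007 over all tested genes. Those of KIF18A and KIF20A (-0.017 each) lay next to 0 and did not keep their sign under other settings. Density estimates were also below 0 for 9 of 13 ERK output genes (median -0.30) and 13 of 21 partners and regulators (median -0.21). Among transport and other kinesins 9 of 22 were below 0 (median 0.07). The drop was 2.74-fold for KIF15, 2.03-fold for KIF4A and 1.82-fold for KIF2C. Over all tested genes 1.00% were called lower (107 genes) and 0.0469% higher (5 genes). With scaling by library totals 78 genes were lower and 27 higher. The ratio per dish was formed from libraries with equal treatment and number, which were taken to come from a common lysate. KIF15 had densities of 0.626, 0.515 and 0.829 with DMSO and 0.189, 0.194 and 0.358 with trametinib (log2 change -1.456 ± 0.30, 95% confidence interval -2.11 to -0.80, adjusted p = 0.033). KIF2C had 1.82, 1.84 and 1.98 with DMSO and 0.936, 1.08 and 1.09 with trametinib (-0.86 ± 0.18, interval -1.25 to -0.47, adjusted p = 0.0356). For KIF4A the densities were 1.05, 0.857 and 1.21 with DMSO and 0.476, 0.471 and 0.574 with trametinib (-1.02 ± 0.23, interval -1.5 to -0.53, adjusted p = 0.047). In each of these genes every trametinib dish lay below every DMSO dish, and in the last the sequence shared with KIF4B was left out of both assays.

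KIF14 and KIF20B also had all trametinib dishes below all DMSO dishes but were not called. KIF14 had densities of 0.595, 0.566 and 1.03 with DMSO and 0.218, 0.346 and 0.555 with trametinib (log2 change -1.04 ± 0.40, adjusted p = 0.476). KIF20B had 0.727, 0.771 and 1.09 with DMSO and 0.482, 0.477 and 0.609 with trametinib (-0.70 ± 0.22, adjusted p = 0.293). Such a separation of dishes was seen for these 5 members and for 8.99% of the 10627 genes with a ratio in every dish. In the other 5 members the dishes overlapped. For KIF11 the log2 change was -0.64 (interval -1.38 to 0.095, adjusted p = 0.718), and dish 3 was the highest with either treatment (2.83 and 1.83). KIF23 had -0.28 (-0.96 to 0.40, adjusted p = 0.933) and KIF18B -0.41 (-1.43 to 0.62, adjusted p = 0.945). KIF18A (-0.017, interval -0.68 to 0.64) and KIF20A (-0.017, interval -0.72 to 0.69) had estimates next to 0, whose sign turned under other scalings and when libraries were left out. These intervals are wide enough that a change in density as large as that of KIF2C could be present in KIF11, KIF18B and KIF23. Trametinib input held few reads of these genes, in all 3 libraries together 13 for KIF18B, 56 for KIF14, 63 for KIF4A, 68 for KIF15, 69 for KIF23 and 77 for KIF2C.

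The density calls depended on the settings. The estimates of the 3 called genes stayed below 0 in all 21 alternatives, as did those of the uncalled KIF11, KIF14, KIF18B, KIF20B and KIF23. The alternatives reuse the same libraries, so a kept sign does not set the called genes apart. KIF15 was called in 11 of the 21 alternatives (log2 change -1.65 to -1.27), KIF2C in 7 (-0.91 to -0.69) and KIF4A in 3 (-1.16 to -0.84). KIF15 lost its call without DMSO input replicate 1, DMSO footprint replicate 2 or 3, trametinib input replicate 1 or 2, or any trametinib footprint replicate (adjusted p from 0.0545 to 0.169). KIF2C lost it without any library other than DMSO input replicate 1 or 3 (adjusted p from 0.0601 to 0.143), and KIF4A without any library other than DMSO input replicate 2 (0.0624 to 0.172). Without both libraries of DMSO dish 1, KIF15 (adjusted p = 0.03) and KIF2C (0.0408) were called and KIF4A was not (0.0805). With a block for each dish KIF15 (adjusted p = 0.0192) and KIF2C (0.043) were called and KIF4A was not (0.0631), and with a block for the replicate number KIF15 (0.0327) was called and KIF2C (0.0739) and KIF4A (0.0787) were not. Under DESeq2 all 3 were called (adjusted p = 0.00207, 0.0198 and 0.0309), and with scaling by library totals none (0.0722, 0.1 and 0.125).

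**Figure D3:**
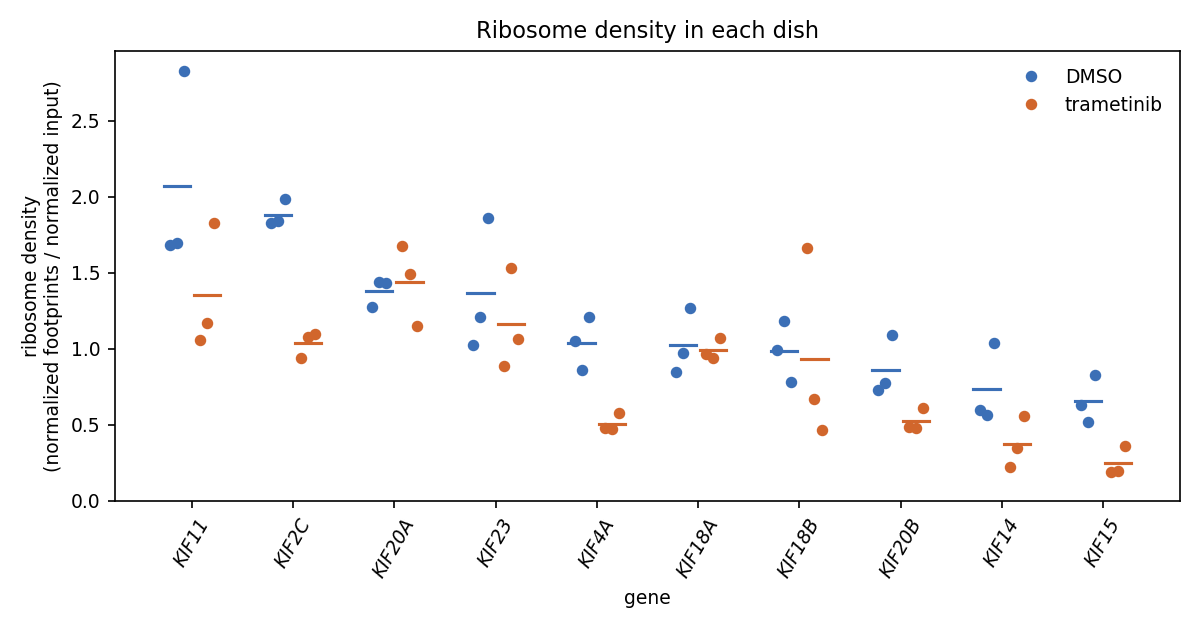
Ribosome density (normalized footprints divided by normalized input) of each mitotic kinesin in every dish, DMSO in blue and trametinib in orange, with a bar for the mean of 3 dishes; genes are ordered by DMSO mean. The trametinib dishes lie wholly below the DMSO dishes for KIF2C, KIF4A, KIF20B, KIF14 and KIF15 and overlap with them for the other 5.

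In DMSO the members spanned much of the range of ribosome densities. KIF11 had a higher density than 86.6% of the tested genes and KIF2C than 83.7%, while KIF14 was above 29.4% and KIF15 above 25%. KIF20A (68.4%) and KIF23 (66%) lay above the middle and KIF4A (49.9%), KIF18A (49.5%) and KIF18B (46.5%) close to it, with KIF20B at 38.9%. Members called lower under trametinib thus came from the upper, middle and lower part of this range.

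**Figure D4:**
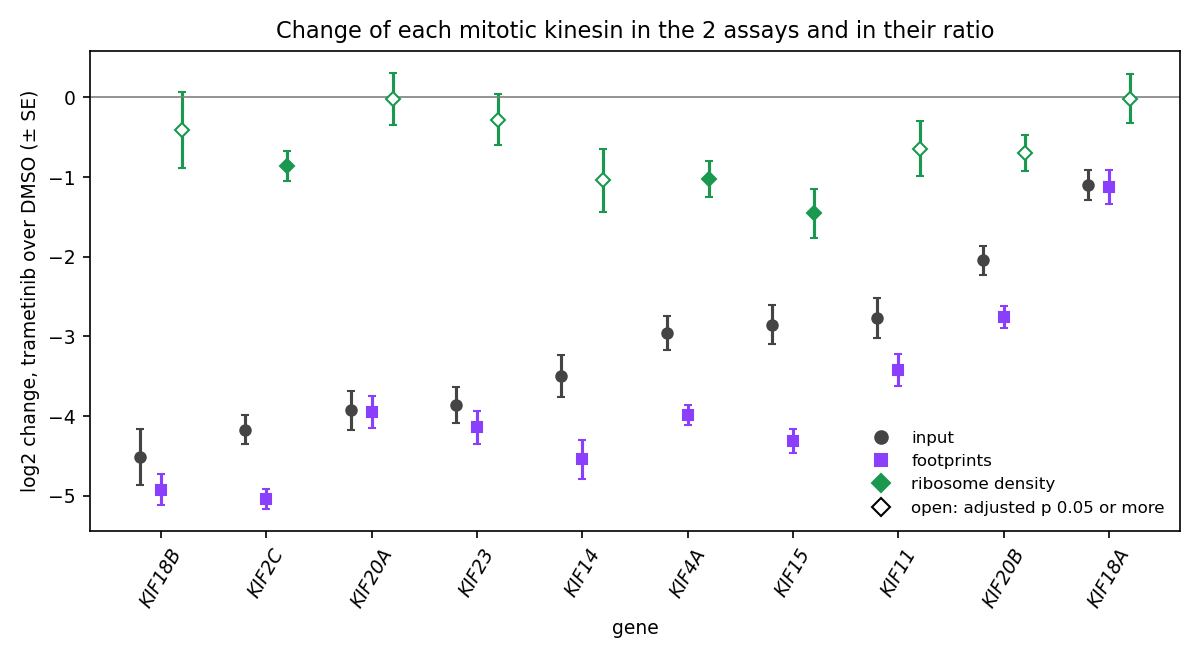
Log2 change of trametinib over DMSO with its standard error (bars) for input (black circles), footprints (violet squares) and ribosome density (green diamonds, filled where the adjusted p-value was under 0.05) of each mitotic kinesin, ordered by input change. Footprint values lie a log2 unit or more below input for KIF14, KIF15 and KIF4A and at the same height for KIF18A and KIF20A.

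Other kinesins used in division were compared next. KIFC1, a minus-end directed motor that clusters spindle poles, fell by 4.35 on the log2 scale in input (adjusted p = 1.15e-07) and fell by 4.68 in footprints (5e-07). CENPE, which carries chromosomes to the metaphase plate, had log2 changes of -2.83 in input and -3.36 in footprints (1.36e-05 and 1.01e-06), and the chromokinesin KIF22 had -2.77 and -2.74 (1.75e-07 and 2.38e-06). KIF2A, a depolymerase related to KIF2C that is also active outside mitosis, was not called, with log2 changes of -0.32 (adjusted p = 0.15) in input and 0.07 (adjusted p = 0.659) in footprints. Its normalized counts were 423, 490.4 and 398 in DMSO input and 380.3, 314 and 350 in trametinib input, which did not overlap. So 3 of the 4 tested fell. Density was called for 0 of the 4 (0 at an unadjusted p under 0.05 in edgeR as well), with estimates from -0.53 for CENPE to 0.40 for KIF2A. KIF4B had too few input reads for a test (0, 1 and 1 with DMSO and 1, 0 and 0 with trametinib). Its footprints were 32, 15 and 21 reads with DMSO and 2, 1 and 1 with trametinib.

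Most kinesins that serve transport and other tasks were not called lower. Of 22 tested, 2 were lower and 6 higher in input (15.4% of all tested genes were higher), with a median log2 change of 0.35, and 2 were lower and 10 higher in footprints (23.9% of all tested genes were higher), with a median of 0.36. The lower ones were KIFC3, a minus-end motor of epithelial cells (-2.29 in input and -2.41 in footprints), and KIF24, which acts at centrioles (-1.79 and -2.28). The largest rises in input were those of KIF17 (2.81), KIF26B (2.19) and KIF3C (1.29), which were also the largest in footprints (1.96, 1.06 and 1.33). KIF17 and KIF26B rested on few reads, 7 and 9 in DMSO input in all. Density was called for 0 of the 22 (1 of 22 at an unadjusted p under 0.05 in edgeR, and the lowest adjusted p was 0.556), with estimates from -1.13 for KIF26B to 0.79 for KIFC2. The lists overlapped in input through these genes, since KIFC3 fell more than KIF20B and KIF18A did and KIF24 more than KIF18A, and every other transport kinesin lay above all 10 mitotic kinesins.

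**Figure D5:**
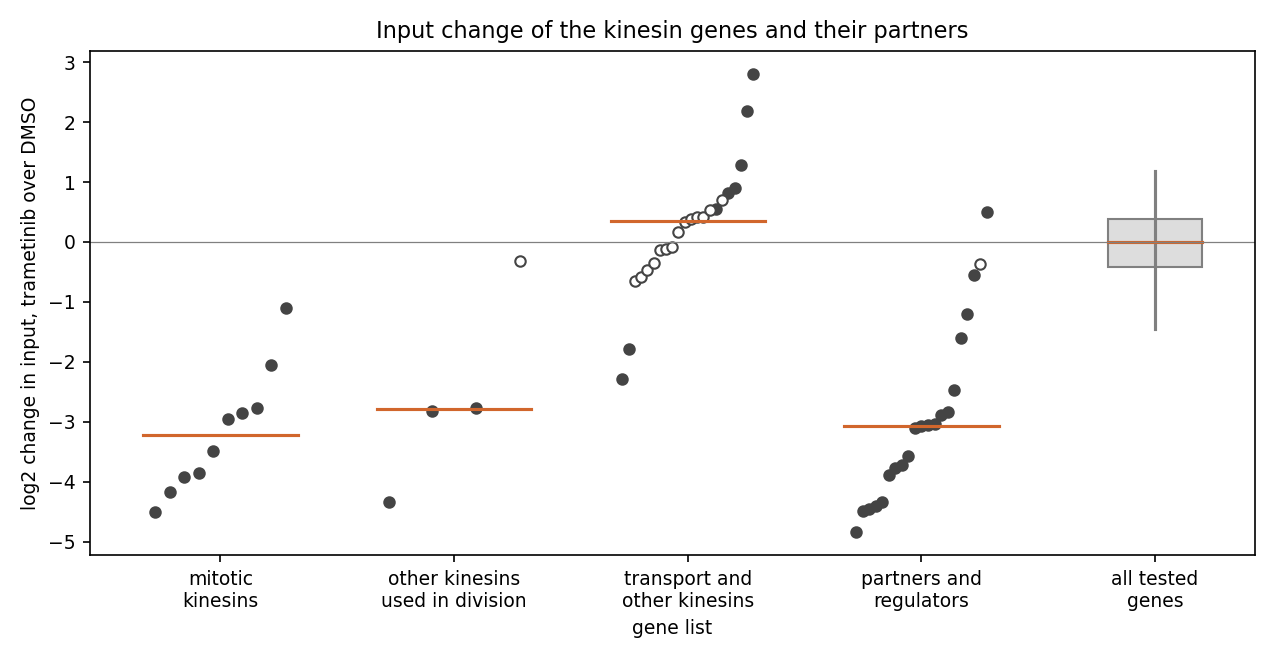
Log2 change in input (trametinib over DMSO) of every tested gene of 4 lists, filled where the adjusted p-value was under 0.05, with the list median as an orange bar; the box and line at the right give the middle 50% and 90% of all 10663 tested genes. All 10 mitotic kinesins lie below the box, whose lower edge is at -0.41, as do KIFC1, CENPE and KIF22. The transport kinesins KIFC3, KIF24, KIF9, KIF21B and KIF5B lie below it too, and the transport kinesins as a list spread from -2.29 to 2.81. KIF18A (-1.10) lies within the line, which ends at -1.46.

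The partners and regulators of these motors moved with them. Of 21 tested, 19 were lower and 1 higher in input (median log2 change -3.08), and the same counts were found in footprints (median -3.41). The largest falls were those of AURKB, the kinase of the chromosomal passenger complex (-4.85 in input and -5.30 in footprints), PLK1, the polo kinase of mitosis (-4.49 and -4.70), and CDCA8, borealin of the same complex as AURKB (-4.45 and -4.70). NUMA1, which anchors spindle poles and is present in the nucleus throughout interphase, was higher (0.51 and 0.53, adjusted p = 0.0169 and 0.00461). AURKB, for example, had 805, 758 and 770.3 normalized counts in DMSO input and 19.2, 23.2 and 38.6 in trametinib input. Ribosome density was called for 0 of the 21 (0 at an unadjusted p under 0.05 as well), with a median log2 change of -0.21 beside -0.67 for the mitotic kinesins.

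Of the cell cycle transcription regulators, among them the MuvB subunits, B-MYB, FOXM1 and the E2F and pocket proteins, 9 of 14 tested were lower and 1 was higher in input, with the same counts in footprints, where LIN52 was among the lower ones and E2F4 was not (in input E2F4 was and LIN52 was not). E2F1, an activator of genes of S phase entry, had log2 changes of -4.28 in input and -3.60 in footprints. MYBL2 had -3.39 and -3.89, and FOXM1 had -2.77 and -3.81. RBL2, the pocket protein of resting cells, was higher by 0.58 and 0.52 (adjusted p = 0.00771 and 0.00424). The median over the 14 was -0.90 in input and -1.18 in footprints, and none was called in density (2 of 14 at an unadjusted p under 0.05).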

How the data were processed

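Input RNA and ribosome footprints of HCT116 cells were sequenced in 12 libraries, grouped by their labels. After adapter trimming, the authors filtered out rRNA and tRNA reads with Bowtie 1.2.2, aligned what was left to Gencode transcripts and counted, for each gene symbol, reads inside open reading frames that matched no other symbol. The deposited table holds raw counts for each library. It also holds normalized counts, a signal made by the authors with DESeq2 1.46.0, which equalled each count divided by the median-of-ratios size factor recomputed here in 12 of 12 libraries. Fold changes and p-values of the authors were not used. No column of values per library was left unused.

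Counts were tested with edgeR 4.0.16 (quasi-likelihood, R 4.3.3) over the 10663 genes that reached 10 counts in 3 or more input libraries, in input and in footprints separately with TMM scaling, and for ribosome density as the interaction of assay and treatment over all 12 libraries with median-of-ratios size factors. Benjamini-Hochberg adjustment ran over all tested genes, with calls under 0.05. Scaling sets the libraries level, so a change shared by all mRNAs cannot be seen. The test was checked on simulated counts. Alternatives were DESeq2 1.42.0, limma-trend (limma 3.58.1, prior count 2), other scalings and filters, replicate blocks and leaving out libraries. Leaving out DMSO dish 1 was added after the data were seen. No libraries were identical within sampling noise. The labels call the replicates biological, and in input and in footprints p-values measure the spread between them. The main density fit took the 12 libraries as independent, with no block for the dish. Its p-values therefore do not measure the spread of the density between dishes.

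All 10 members and all other kinesins used in division were named, and of other lists up to 3 called genes per direction and comparison. The members and lists were chosen with earlier results of these data known. Gene positions and coding lengths came from Gencode v44 (GRCh38), promoters from RefSeq, which held all 10 members.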

Additional observations from a re-analysis of the deposited data

How the results depend on the processing

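All 130 values of the members in input and all 130 in footprints, over DESeq2, limma-trend, 2 other scalings, 2 other filters, the replicate block and each library left out, stayed in the same direction and called. Of 210 values for ribosome density, 149 kept both the direction and the status as called or not called. Another 42 kept the direction but lost the call, and 19 reversed. For the 7 members not called in the main fit, a kept status means that they stayed uncalled. The cause was not tested except where scaling moved all genes. Library totals moved the median log2 change of all tested genes to 0.16 in footprints and to 0.18 in density, and TMM scaling moved that in density to 0.07. The number of members called lower in density was 3, and was 1 with TMM scaling, 0 with library totals, 1 with no filter and 1 with a replicate block by number, with 0 to 2 when a library was left out. The number of all genes called higher in density was 5, and was 35 with DESeq2, 10 with TMM, 27 with library totals, 18 with a replicate block by dish and 12 without DMSO dish 1, with 1 to 11 when a library was left out. The number called lower was 107 and ranged from 68 to 130 on leaving out a library. In input the number called higher (1641) ranged from 1069, without trametinib input replicate 2, to 1767 on leaving out a library.

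Estimates near 0 in density reversed. KIF18A became 0.053 with TMM and 0.16 with library totals, and KIF20A 0.032 with limma-trend, 0.054 with TMM, 0.16 with library totals and 0.013 with a replicate block by number or by dish. KIF22 became -0.030 without DMSO dish 1. On leaving out a library, KIF18A ranged from -0.29 to 0.19, KIF20A from -0.20 to 0.31, KIF22 from -0.11 to 0.14 and KIFC1 from -0.55 to 0.11.

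Input and footprint libraries of the same number shared a lysate only by assumption. Over 7669 genes the correlation of their deviations from group means was 0.816, 0.181 and 0.343 for the DMSO dishes and 0.141, 0.0803 and -0.122 for the trametinib dishes. With a replicate block by dish KIF15 and KIF2C were called in density and KIF4A was not (adjusted p = 0.0631), and by number KIF2C was not called either (0.0739). Numbers shared across treatments correlated at 0.068, 0.0484 and 0.334 in input and at 0.117, 0.133 and 0.294 in footprints, and with a replicate block by number 10 of 10 members were called lower in each assay. The 3 trametinib input libraries together held 13 to 448 reads of a member.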
